A study of Mus musculus with 3 samples.

Results

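The glycolysis genes Gapdh, Ldha, Eno1, Tpi1, Aldoa and Pgam1 were followed through 3 maps of modified cytosines made from gDNA of E14 mESCs, an established line of mouse embryonic stem cells grown with LIF and 2 kinase inhibitors. They are 6 of 22359 protein-coding genes in the GENCODE annotation of mm9, chosen by name because processed copies of their mRNAs lie elsewhere in the genome. TAPSβ reads 5mC, CAPS reads 5hmC and PS reads 5fC and 5caC, each by turning the modified base into one that is sequenced as T. Each method was run as 1 library from the same cell line without replicates, so every interval below is an exact binomial 95% interval that covers counting error only, and p-values compare reads of 1 library. In mm9 coordinates the genes lie at chr6:125111871-125116485 (Gapdh), chr7:54096845-54110997 (Ldha), chr4:149610830-149622988 (Eno1), chr6:124760604-124764314 (Tpi1), chr7:133938748-133944265 (Aldoa) and chr19:41986361-41993154 (Pgam1). All 6 had the 5 cytosines and 50 base calls on each side that a gene needed to be compared. Fragments were selected at 200 to 400 bp for CAPS and at 300 to 500 bp for TAPSβ and PS. The CpG cytosines of the reference held 11.98 reads on average in TAPSβ, 8.84 in CAPS and 8.99 in PS, and the genome-wide levels were 57.5%, 3.14% and 0.246%. In each method the paper also found a low rate of unmodified spike-in DNA read as modified. Levels here were not corrected for it, and the PS library level was no higher than that rate. A low level therefore does not by itself show a modification.

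Glycolysis splits glucose into pyruvate, and its enzymes are made in nearly every cell. An abundant mRNA can be copied into DNA and inserted elsewhere, which leaves a processed copy that has the exons joined, lacks the introns and usually lacks the promoter. A read from such a copy can be placed on the exons of the parent gene, or the reverse, because the sequences are nearly alike, whereas a processed copy has no introns to give reads. In most tissues a CpG-rich promoter is free of 5mC and the body of an active gene carries it. The exon side of each gene was therefore set beside the intron side, both within 500 bp of an inner exon end and outside 500 bp of any start site.

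The sequences below show how a gene and its copy part at a splice junction, and the CpGs they share. Each holds the last 80 bases of a coding exon and the 40 bases that follow, which are intron in the gene and the next exon in the copy, with CpGs in capitals. They are given 5′ to 3′ along the mRNA strand from mm9. In Gapdh, exon 5 at chr6:125112456-125112575 (minus strand) was set beside the copy at chr11:20235227-20235346 (minus strand), annotated as the protein-coding gene Gm12033. They matched at all 80 exon bases and at 8 of the 40 that follow.
Gapdh gene: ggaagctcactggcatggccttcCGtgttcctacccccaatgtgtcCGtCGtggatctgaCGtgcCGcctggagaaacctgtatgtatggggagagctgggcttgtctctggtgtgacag
Gapdh copy: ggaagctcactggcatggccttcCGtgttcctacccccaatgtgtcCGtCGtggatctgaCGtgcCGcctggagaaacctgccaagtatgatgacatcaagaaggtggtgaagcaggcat
The 5 CpGs of these exon bases were kept in the copy. Over the whole window, TAPSβ read 2 of 205 base calls as modified in the gene (0.976%) and 5 of 8 in the copy (62.5%).

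The other pairs were chosen in the same way, except that Eno1 is shown with Gm13699 and not with Gm5506, the copy with the most CpG cytosines. In Pgam1, exon 1 at chr19:41986597-41986716 (plus strand) was identical over its 80 bases, 14 CpGs included, to Pgam1-ps2 at chr7:28255376-28255495 (minus strand).
Pgam1 gene: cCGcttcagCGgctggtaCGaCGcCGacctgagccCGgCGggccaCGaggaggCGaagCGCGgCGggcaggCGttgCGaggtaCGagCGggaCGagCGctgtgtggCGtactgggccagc
Pgam1 copy: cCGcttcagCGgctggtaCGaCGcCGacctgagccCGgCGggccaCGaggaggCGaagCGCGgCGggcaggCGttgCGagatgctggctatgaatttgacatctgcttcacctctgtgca
The gene window had 3 modified calls of 599 in TAPSβ (0.501%), and the copy window had 0 calls in each of the 3 libraries. This gene window lies within 500 bp of the start site and is no part of the Pgam1 exon side, which had 45.0%. In Eno1, exon 3 at chr4:149615170-149615289 (plus strand) was identical over its 80 bases to Gm13699 at chr2:80677399-80677518 (plus strand).
Eno1 gene: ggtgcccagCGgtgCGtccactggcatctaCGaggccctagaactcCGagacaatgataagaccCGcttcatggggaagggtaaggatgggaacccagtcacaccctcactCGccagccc
Eno1 copy: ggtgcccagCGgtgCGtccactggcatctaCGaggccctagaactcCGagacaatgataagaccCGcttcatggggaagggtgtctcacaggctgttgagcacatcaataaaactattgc
Here TAPSβ gave 6.06% in the gene and 68.6% in the copy. In Tpi1, exon 6 at chr6:124761495-124761614 (minus strand) matched the copy at chr6:127133504-127133623 (minus strand) at 79 of 80 exon bases.
Tpi1 gene: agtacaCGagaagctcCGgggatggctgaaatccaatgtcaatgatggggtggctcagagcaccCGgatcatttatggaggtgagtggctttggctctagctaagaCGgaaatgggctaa
Tpi1 copy: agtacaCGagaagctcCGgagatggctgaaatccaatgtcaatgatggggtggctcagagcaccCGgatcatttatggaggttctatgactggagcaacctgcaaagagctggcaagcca
Both windows were methylated, at 41.4% in the gene and 86.2% in the copy.

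With all reads of a side summed, the TAPSβ level was higher on the exon side in 4 of the 6 genes and lower in Gapdh, by a two-sided Fisher's exact test with Benjamini-Hochberg adjustment over 17729 genes. The same test called 40.2% of all these genes higher and 23.8% lower on the exon side. Gapdh, which oxidizes glyceraldehyde 3-phosphate, was the gene with almost no 5mC in its exons. Its exon side held 6 modified calls of 885, a level of 0.678% (interval 0.249 to 1.47%), and its intron side held 6 of 199, or 3.02% (adjusted p = 0.0209, Fisher's exact test). The intron side had only 14 cytosines. Eno1, the enolase, had 22.0% on the exon side and 17.2% on the intron side (adjusted p = 3.98e-04, Fisher's exact test). Ldha, a subunit of lactate dehydrogenase, had 41.4% and 34.3% (adjusted p = 4.85e-04, Fisher's exact test). Aldoa, an aldolase, had 13.8% and 9.42% (adjusted p = 0.00604, Fisher's exact test). Pgam1, a phosphoglycerate mutase, had the widest gap, with 45.0% and 17.6% (adjusted p = 1.69e-26, Fisher's exact test). Tpi1, the triose phosphate isomerase, had 18.2% and 15.1%, which did not pass the test (adjusted p = 0.156, Fisher's exact test).

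**Figure D1:**
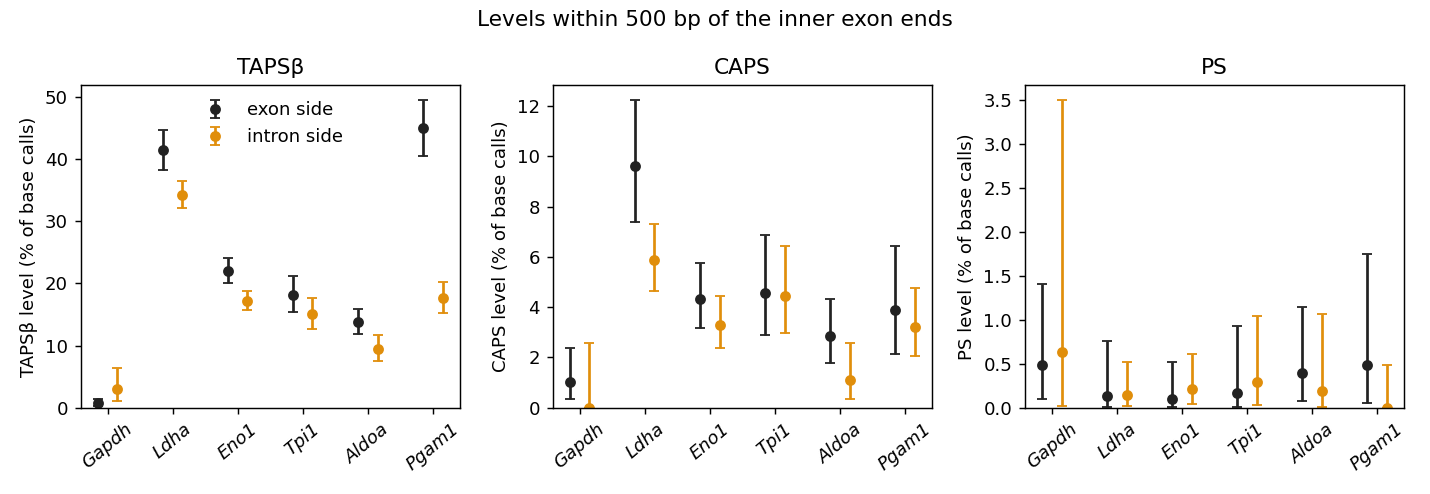
TAPSβ, CAPS and PS levels in percent of base calls for the exon side (black) and the intron side (orange) of the 6 genes; bars are exact binomial 95% intervals of 1 library. In TAPSβ the Pgam1 sides stand at 45.0% and 17.6%, and in PS every level is under 1%.

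These calls depended on which cytosines were summed. The number of genes called higher was 0 within 200 bp of the exon ends, where 27.2% of all genes were called higher. It was 2 with cytosines within 1000 bp of a start site left out (24.3% of all genes), 1 with first and last exons left out (24.9%) and 1 with promoter cytosines kept (23.1%). It was 5 with only the main start left out (42.5%), where Tpi1 was called higher as well, at 15.4% and 11.3% (adjusted p = 0.0104, Fisher's exact test). Tpi1 was also called higher within 1000 bp of the exon ends, at cytosines with 10 or more reads and without the exon with most base calls, by 6.83, 6.26 and 23.1 points. Apart from Gapdh, each gene had a lower TAPSβ level in its first exon with calls than in its last, and the sides did not sample the gene alike. The lower call of Gapdh was lost with only the main start left out, at 0.662% and 0.644% over 78 intron cytosines, and with promoter cytosines kept, at 0.536% and 0.527% (adjusted p = 1 in both, Fisher's exact test). Aldoa turned into a lower call with cytosines within 1000 bp of a start site left out, at 13.8% and 19.8% (adjusted p = 0.0147, Fisher's exact test). With first and last exons left out, Pgam1 turned into a lower call too, at 40.1% and 49.1% (adjusted p = 0.0457, Fisher's exact test). Gapdh remained a lower call there, at 0.754% and 3.02% (adjusted p = 0.0394, Fisher's exact test). Tpi1 became a lower call in the same setting, at 10.4% and 36.4% (adjusted p = 9.18e-18, Fisher's exact test), and within 200 bp of the exon ends, by -22.3 points (adjusted p = 3.46e-12, Fisher's exact test). The shares of all genes called lower with inner exons only or within 200 bp are not given here. In Pgam1, the intron end beside exon 1 gave 597 of the 931 intron calls, at 0 modified, while exon 1 itself lay within 500 bp of the start and was left out. At exon 3 of Pgam1 the exon had 51.5% and its intron ends 65.2%, and at exon 4 the values were 53.6% and 63.2%. At exon 2 they were 27.9% and 21.8%, the highest difference of this gene.

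Set against the adjoining intron ends, each of the 9 exons of Aldoa with calls on both sides was lower than its introns. The gap ran from exon 9 (30.5% and 31.1%) to exon 10 (34.4% and 53.4%), and in both the intervals of exon and intron overlapped. Intron bases within 500 bp of both neighbouring exons were counted for each, so these comparisons share reads and are not independent. Weighted over exons, the exon minus intron difference of Aldoa was -5.25 percentage points, opposite in sign to its summed difference of 4.39. Pgam1 also turned, from 27.4 to -6.13 points, and Tpi1 from 3.06 to -20.6. Exon 4 of Tpi1 had the lowest difference, at 2.05% against 35.2%, and exon 5 the highest, at 38.7% against 36.2%. Eno1 kept a higher exon side, at 2.90 points, with exon 12 highest above its introns (41.4% and 20.4%). Ldha kept one too, at 2.01 points, with exon 5 at 57.0% and its intron ends at 37.2%. Gapdh stayed lower, at -2.72 points, in each of the 3 exons that could be compared, with exon 3 nearest to its introns (0.643% and 1.35%). This matched difference was below 0 in 4 of the 6 genes and in 51.8% of 17690 genes, and it was computed after the summed values had been seen and has no test.

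**Figure D2:**
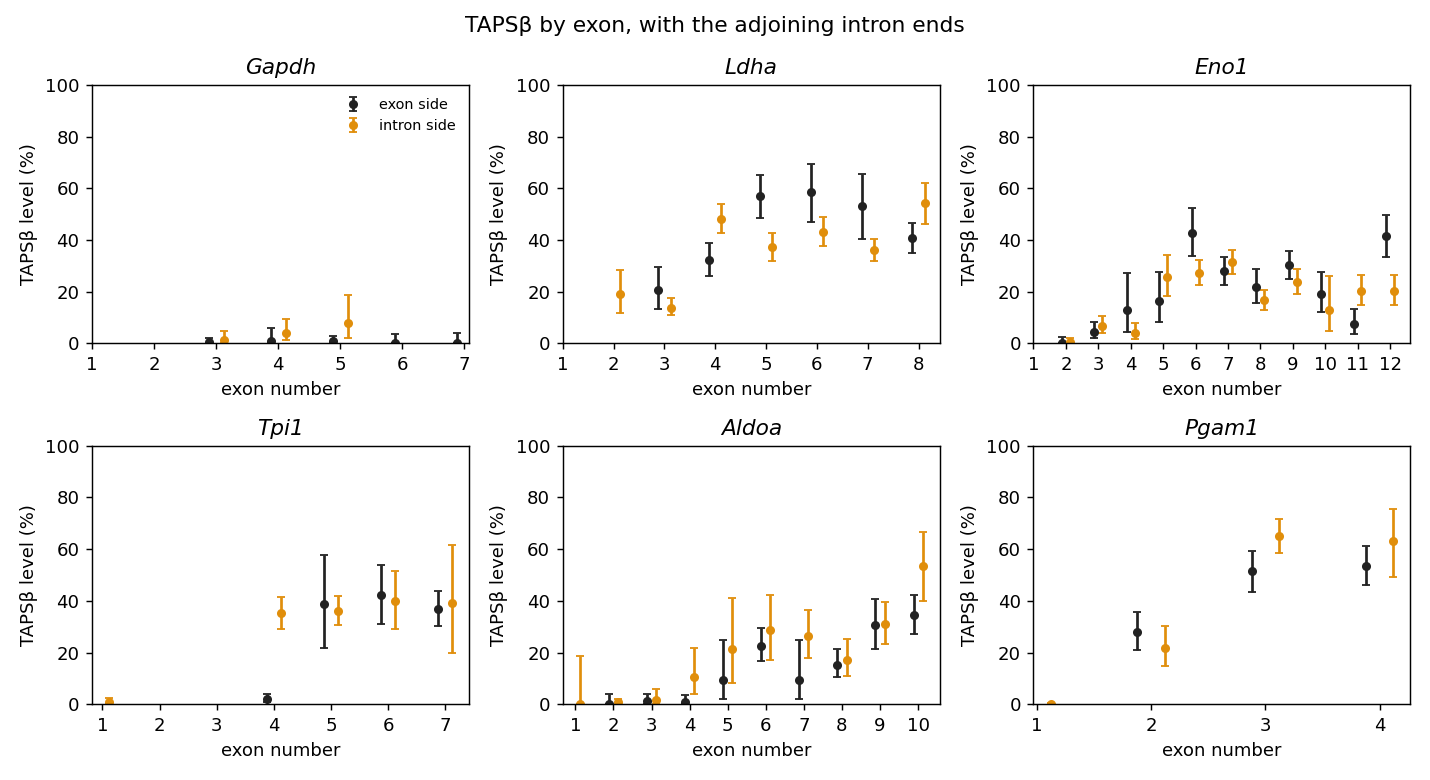
TAPSβ level in percent by exon number in the 6 genes, for the exon (black) and the adjoining intron ends (orange), with exact binomial 95% intervals. Neighbouring exons can share intron reads. The first exon with calls is at 20.6% in Ldha and 27.9% in Pgam1, and later exons of both pass 50%, while Gapdh exons stay under 2%.

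In CAPS and PS, 0 of the 6 genes were called in either direction, where 4.02% and 0.239% of all genes were called higher on the exon side and 1.72% and 0.125% lower. Nearest to a call in CAPS was Ldha, with 9.60% (interval 7.37 to 12.2%) on the exon side and 5.87% (4.64 to 7.31%) on the intron side. Its adjusted p was 0.0692 (Fisher's exact test). With at least 5 reads in each library Ldha became a CAPS call, by 4.33 points (adjusted p = 0.0298, Fisher's exact test). CAPS exon levels of the other genes ran from 1.02% in Gapdh to 4.58% in Tpi1. PS levels lay between 0.0942% and 0.487% on the exon sides, from at most 3 modified calls a gene. The interval of each gene covered the rate that the paper gives for unmodified spike-in DNA in PS. On the exon sides, which leave out cytosines within 500 bp of a start site, none had more than 1 modified PS read. With promoter cytosines kept, the Eno1 exon side held 5 modified PS calls, and its single cytosines were not examined. The highest PS level at an exon-side cytosine with at least 10 reads was 1 of 10 reads, in Gapdh at position 125112282 of chromosome 6.

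Summed over a gene, exon coverage stayed close to intron coverage, apart from Pgam1. The ratio of reads per CpG cytosine, exon over intron side, passed 1.5 in 0 of the 6 genes in each library, and in 1.01%, 1.43% and 1.44% of all genes in TAPSβ, CAPS and PS. Outside Pgam1 the ratios ran from 0.869 (Gapdh in CAPS) to 1.19 (Tpi1 in PS). Pgam1 exons were covered less than its introns, at 0.721 in TAPSβ, 0.649 in CAPS and 0.739 in PS. In TAPSβ, 95.1% of all genes had a higher ratio. The highest TAPSβ ratios, 1.16 in Tpi1 and 1.11 in Gapdh, were passed by 7.61% and 11.8% of all genes, whose median was 0.947. For the Gapdh ratio of 0.869 in CAPS, 81.0% of all genes were higher. Single exons lay further from their introns in both directions. Exon 4 of Pgam1 was lowest in TAPSβ, at 0.577. Exon 4 of Tpi1 was at 1.72 in TAPSβ and 1 in CAPS. Exon 4 of Ldha was at 1.48, 1.62 and 1.65 in TAPSβ, CAPS and PS. In each library 11 of its 34 intron cytosines were unlisted and counted as 0 reads, which raises these ratios. Exon 10 of Aldoa was at 1.87 in CAPS, 1.38 in TAPSβ and 1.42 in PS, over 4 intron cytosines with 26 CAPS calls. With unlisted cytosines left out, not counted as 0 reads, the Ldha gene ratio fell from 1.05 to 0.911 in TAPSβ. It fell from 1.05 to 0.903 in CAPS and from 1.15 to 0.996 in PS.

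**Figure D3:**
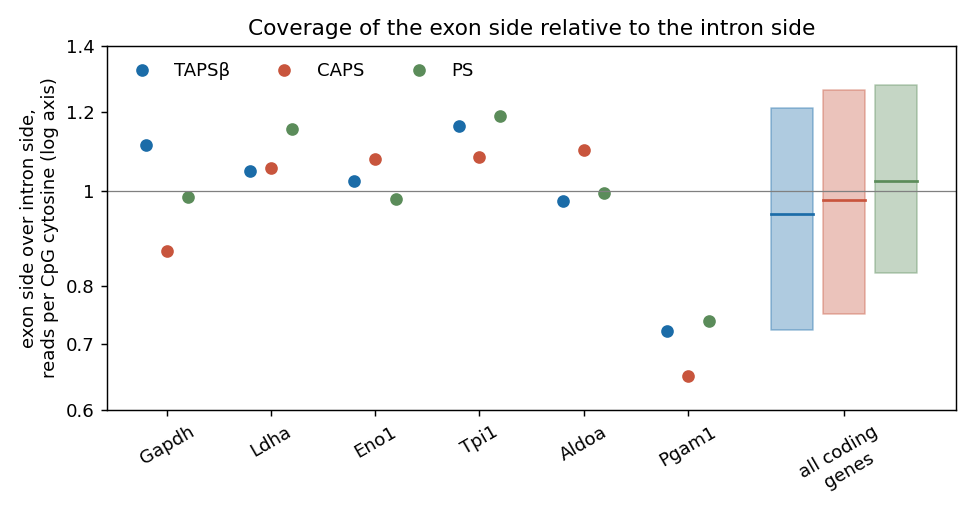
Reads per CpG cytosine on the exon side over the intron side (log axis) for the 6 genes in TAPSβ, CAPS and PS, with the median (line) and the 5th to 95th percentile (box) of all coding genes tested. Pgam1 lies lowest in each library, at 0.721, 0.649 and 0.739.

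The reference held 55 copies of the 6 mRNAs at 95% identity or more over at least 250 bp. Of these, 16 overlapped an annotated pseudogene and 20 an exon of a gene annotated as protein-coding. Gapdh had 47, Eno1 4, Pgam1 2, Ldha and Tpi1 1 each, and Aldoa 0. Pieces on opposite strands were counted apart even where they adjoined, as they did for Gapdh on chromosomes 1 and 17. At 90% identity Aldoa had 3. Of the Gapdh copies, 41 covered over 80% of the mRNA. The copies were methylated, with TAPSβ levels of 78.1% over all Gapdh copies, 66.2% in Eno1, 79.8% in Tpi1, 73.5% in Ldha and 55.8% in Pgam1. The 4 Eno1 copies differed, at 20.4%, 49.0%, 71.0% and 71.6%, and the Pgam1 value came from 1 of its 2 copies, since the other had 0 TAPSβ calls. Among the 40 Gapdh copies with at least 50 TAPSβ calls, levels ran from 44.6 to 87.2% with a median of 78.8%, and 39 were over 50%. The longest stretch identical to a copy was 1086 bp in Gapdh, 976 bp in Pgam1, 835 bp in Eno1, 168 bp in Tpi1 and 85 bp in Ldha.

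At the same cytosines, the TAPSβ levels of the genes lay below those of their copies. Gapdh had 0.678% in its exons and 77.0% (interval 76.2 to 77.8%) at the aligned cytosines of the copies that were still CpGs. Eno1 had 22.0% and 65.3%, Tpi1 36.5% and 80.2%, and Pgam1 45.0% and 62.5%. In CAPS only Gapdh lay below its copies among these 4, at 1.02% and 2.38%. Eno1 had 4.32% and 2.19%, Tpi1 7.52% and 1.51%, and Pgam1 3.90% and 3.48%. The CAPS intervals of gene and copies overlapped in Gapdh and Pgam1, and lay apart in Eno1 and Tpi1. The PS levels, gene before copies, were 0.485% and 0.784% in Gapdh, 0.0942% and 0.108% in Eno1, 0.375% and 0% in Tpi1, and 0.487% and 0% in Pgam1. The gene values in PS rest on 1 to 3 modified calls each. Gapdh copies held 4.61 TAPSβ reads per cytosine and its exons 15.8. The copy over gene ratio of reads was 0.292 in TAPSβ, 0.571 in CAPS and 0.510 in PS for Gapdh, and 0.467, 0.343 and 0.444 for Pgam1. In Eno1 it was 0.279, 0.501 and 0.639. The Tpi1 copy was covered almost as well as the gene, at 0.933, 0.881 and 0.824.

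**Figure D4:**
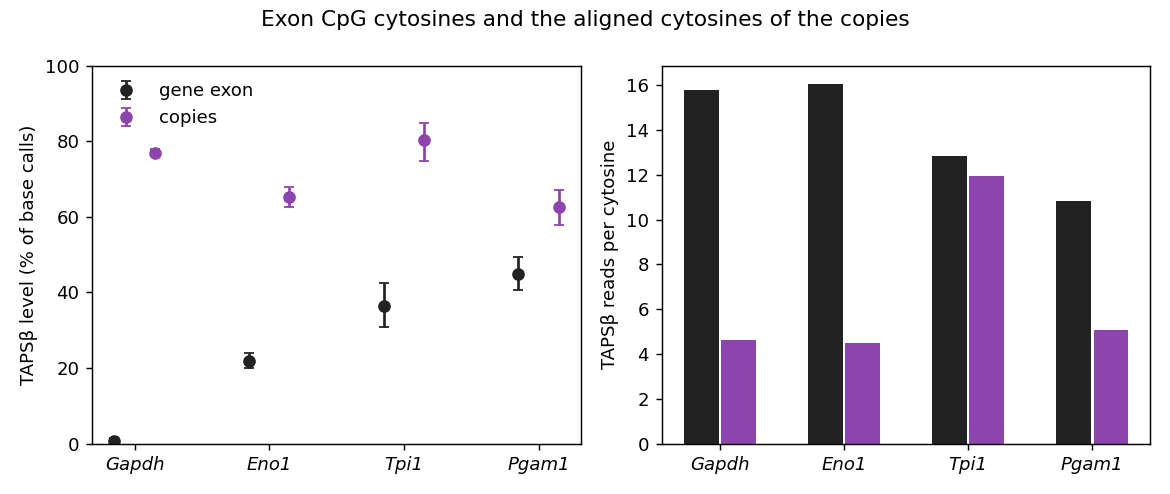
Left, TAPSβ level in percent at exon CpG cytosines of 4 genes (black) and at the aligned CpG cytosines of their copies (purple), with exact binomial 95% intervals; right, TAPSβ reads per cytosine. Gapdh shows the widest gap, 0.678% against 77.0%, and its copies hold 4.61 reads where the gene holds 15.8.

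Reads were scarcest on the copies most like the gene. Gapdh copies at 90 to 93% identity held 10.5 TAPSβ reads per cytosine, those at 95 to 98% held 7.34, and the 22 copies at 99% or more held 2.76, with 42.2% of their cytosines unlisted. CAPS gave 9.01, 7.39 and 2.82 reads and PS 9.31, 8.48 and 3.64 in the same classes. The 8 copies at 98 to 99% held 6.88 TAPSβ, 9.03 CAPS and 9.01 PS reads, so CAPS and PS reads did not fall steadily with identity. The TAPSβ level hardly moved, at 75.3%, 79.1% and 77.3%. Under 1 read per cytosine in all 3 libraries was found for 6 Gapdh copies, of 99.1 to 99.8% identity, and for Pgam1-ps2, of 99.9%, which had 0 TAPSβ reads on 108 cytosines. Reads of low mapping quality had been left out by the authors before the counts were made, and their part in this was not tested.

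**Figure D5:**
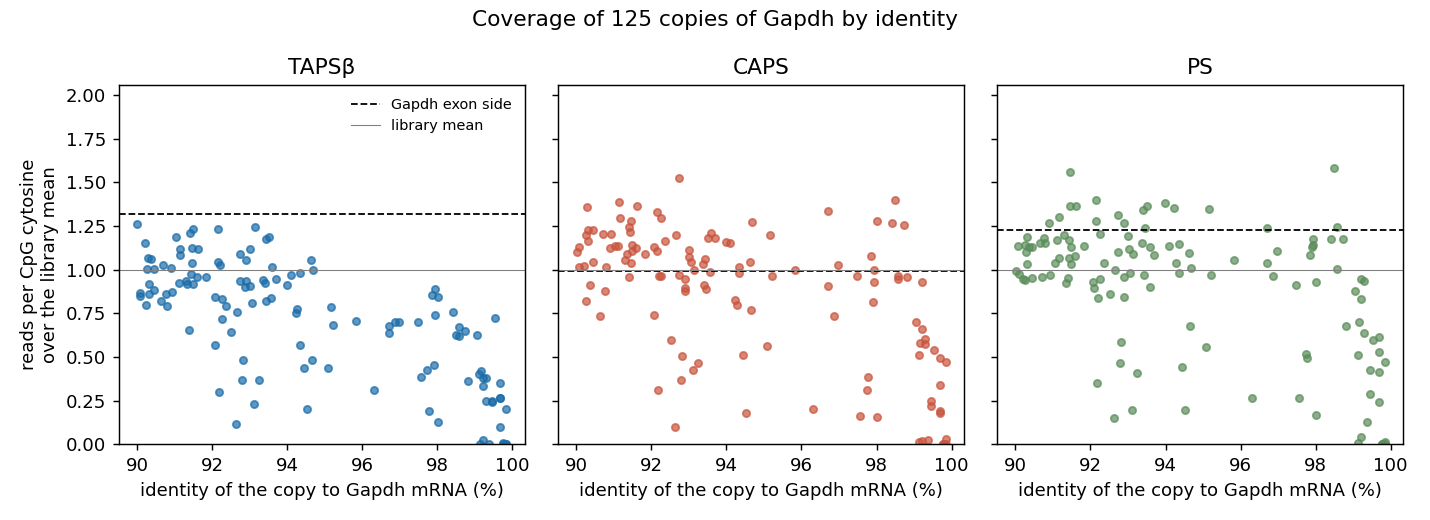
Reads per CpG cytosine over the library mean against identity to Gapdh mRNA in percent, for 125 copies of at least 90% identity, in TAPSβ, CAPS and PS; the dashed line is the Gapdh exon side and the grey line the library mean. Points fall toward 0 at the right edge of each panel, where the 22 copies at 99% or more hold 2.76, 2.82 and 3.64 reads per cytosine.

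A copy that has T where the gene has the C of a CpG would be read as modified in all 3 methods. At the 71 exon cytosines of the 6 genes where at least 1 copy had T, the levels were 7.53% in TAPSβ, 2.52% in CAPS and 0.261% (interval 0.0316 to 0.939%) in PS. Where all aligned copies had C, 165 cytosines gave 27.8%, 4.76% and 0.303%. Where no copy aligned, 156 cytosines gave 22.5%, 5.12% and 0.233%. The PS intervals of these classes overlapped. Gapdh supplied 48 of the 71 cytosines, so the classes also differ by gene. With copies of 90% identity counted, the levels were 19.3% in TAPSβ, 5.10% in CAPS and 0.283% in PS at 200 cytosines with T in at least 1 copy. They were 22.6%, 3.35% and 0.291% at 163 cytosines with C in all aligned copies, so the order of the CAPS levels turned. In the copies themselves the pooled PS level was 0.634% for Gapdh, where the library level was 0.246%, but the median over single Gapdh copies was 0.226%. The copies with the most modified PS calls, on chromosomes 3, 11, 12 and 15, were at 1.73 to 2.19%. The pooled level was 0.386% over the 125 copies at 90% identity or more. Over the 47 copies it was 0.426% once variant-like cytosines (at least 5 PS reads, of which 20% or more modified) were left out.

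The promoters, within 500 bp of any coding start site, were nearly free of 5mC. TAPSβ levels were 0.342% in Gapdh, 0.455% in Pgam1, 2.65% in Eno1, 3.56% in Ldha, 3.57% in Aldoa and 4.43% in Tpi1. These values depended on annotated starts inside the genes: around the start of the main transcript alone, Eno1 had 0.0472%, Aldoa 0.224%, Gapdh 0.388%, Ldha 1.65% and Tpi1 4.91%. With all start sites, CAPS levels ran from 0.889 to 2.19% and PS levels from 0.165 to 0.430%. The highest PS level, in Eno1, was 0.353% once variant-like cytosines were left out. The 200 bases before the first start of Pgam1 and Tpi1 are shown, a CpG-dense stretch beside one with fewer CpGs. They are given with CpGs in capitals and lie at chr19:41986161-41986360 (plus strand) and chr6:124764315-124764514 (minus strand). The genes were taken for having 1 start site (Pgam1) and the highest promoter level (Tpi1).
Pgam1 upstream: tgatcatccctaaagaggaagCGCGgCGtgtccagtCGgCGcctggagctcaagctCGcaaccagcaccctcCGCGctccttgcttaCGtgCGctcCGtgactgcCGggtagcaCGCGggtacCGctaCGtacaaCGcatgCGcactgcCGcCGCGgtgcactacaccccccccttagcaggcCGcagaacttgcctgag
Tpi1 upstream: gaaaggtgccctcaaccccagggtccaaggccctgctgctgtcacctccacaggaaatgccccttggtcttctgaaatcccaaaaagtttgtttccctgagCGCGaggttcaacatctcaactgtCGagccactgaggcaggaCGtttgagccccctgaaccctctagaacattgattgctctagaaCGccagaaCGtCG
Pgam1 had 22 CpGs in this stretch and a TAPSβ level of 0.288%. Tpi1 had 7 CpGs and 0.376%.

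Of 20 other glycolysis genes in the annotation, 19 could be compared. In TAPSβ 5 were called higher on the exon side, 6 lower and 8 neither, with a median difference of -0.796 points against 2.36 over all genes, of which 40.2% were called higher and 23.8% lower. With cytosines within 1000 bp of a start site left out, 2 were called higher and 7 lower, beside 24.3% and 27.9% of all genes. In CAPS and PS 0 were called. Coverage ratios ran from 0.770 to 1.41 over the 3 libraries, and none passed 1.5. The highest TAPSβ differences on the side of the exons were those of Pgk1, a phosphoglycerate kinase, with 53.0% and 40.6%, and of the aldolase Aldoc, with 68.6% and 57.8%. The widest difference of all was a lower exon side in the hexokinase Hk1, with 38.1% and 59.2% (adjusted p = 1.40e-92, Fisher's exact test), a gene named after its values were seen.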

How the data were processed

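The authors trimmed reads with Trim Galore 0.3.1, mapped them with BWA 0.7.12 to mm9, removed duplicates with Picard 2.3.0, excluded poorly mapped reads and made the calls at CpG cytosines with asTair. For each cytosine they deposited a count of modified and a count of unmodified reads, unnormalized, and the fraction of modified reads, which was checked against the counts. The 3 libraries held 511365019, 377288829 and 383591531 base calls, with median depths of 13, 9 and 9, so single cytosines are imprecise. The study set known E14 variants and artifact-prone regions aside in later steps, and whether the deposited counts already lack them is not stated. Start sites included those of all coding transcripts.

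Levels were summed modified over all calls with exact binomial 95% intervals, which treat calls as independent. Exons were those of the coding transcript with the longest coding sequence. Genes with at least 5 cytosines and 50 calls on each side were compared by Fisher's exact test (adjusted p under 0.05). The test was also run on simulated calls drawn independently at 1 level per gene. Such a run cannot show how the test behaves where the cytosines of a side differ, so its p-values cover counting error only. Unlisted cytosines counted as 0 reads. Copies were found with blastn 2.17.0 and pieces within 3000 bp on 1 strand were joined. The sequences come from the mm9 genome. Tests ran in scipy 1.17.1 under Python 3.11.15, with pandas 2.3.3, numpy 2.4.6 and matplotlib 3.10.9.

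The genes and lists were chosen with earlier results of these data known. The named items are the 6 genes, in each the exon with the highest TAPSβ difference, the exon cytosines with the highest PS level at 10 or more PS reads, the copy with the most CpG cytosines (in Eno1 the next after it, Gm13699 in place of Gm5506), and other glycolysis genes by counts with the 2 highest differences. Added after values had been seen were the exon-matched difference, the comparison of genes with copies at the same cytosines, identical stretches, copies by identity, the low coverage ratios, leaving out single genes, the cut at the main start only, the 90% limit for letters and the PS level of copies without variant-like cytosines. Exon 4 of Tpi1, exon 4 of Ldha, exon 10 of Aldoa and exons 3 and 4 of Pgam1 were named after their values had been seen. So were the coverage ratios of single exons. Junction sequences were picked for most CpGs in the exon bases. Alternatives covered distance, promoter overlap, coverage, variant-like and high-coverage cytosines, averaging and exon models.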

Additional observations from a re-analysis of the deposited data

How the results depend on the processing

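Replicates could not be paired because each method had 1 library, and exon and intron sides were matched only within a library. The TAPSβ count of genes called higher on the exon side, 4, fell to 0 within 200 bp, 1 with promoter cytosines kept, 2 with 1000 bp around starts left out and 1 with inner exons only; it was within 1.5 times of 4 under the other settings run. The pooled TAPSβ difference of the 6 genes, 1.22 points, was -7.86 within 200 bp, 5.29 within 1000 bp, -3.27 with 1000 bp around starts left out, 3.07 without the exon with most calls, -5.55 with inner exons only, 4.88 with only the main start left out and -1.91 matched by exon. With promoter cytosines kept it was 0.211, and at 5 or more reads in each library 0.696. Without Gapdh it was 4.40, without Ldha 2.93, without Eno1 -0.435 and without Pgam1 -1.37. The pooled difference therefore has no stable direction, and what set each shift was not tested, beyond the choice of cytosines itself. In CAPS the count rose from 0 to 1 (Ldha) with at least 5 reads in each library, where 3.49% of all genes were called higher. The pooled CAPS difference, 0.608, was -0.607 with inner exons only, -0.0578 within 200 bp and -0.202 with 1000 bp around starts left out. It was 0.0736 at 10 reads, 1.15 within 1000 bp and 1.14 with only the main start left out. It was 1.17 without the exon with most calls, 1.00 without Gapdh and 0.400 without Ldha. Its direction was therefore not stable either. The count of genes past 1.5 fold coverage in TAPSβ rose from 0 to 1 with inner exons only (Tpi1, at 1.51, where 0.854% of all genes passed). The highest promoter level, 4.43%, was 8.34% within 1000 bp, and the 55 copies became 155 at 90% identity. At that limit the TAPSβ level of exon cytosines with T in a copy went from 7.53 to 19.3% and the CAPS level from 2.52 to 5.10%. The PS level of all copies, 0.548%, was 0.376% without variant-like cytosines.

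Single genes changed sign as follows, in percentage points. In TAPSβ Gapdh gave 0.0851 within 1000 bp, 0.0096 with promoters kept and 0.0177 with the main start only. Ldha gave -1.96 within 200 bp and -2.10 with promoters kept. Tpi1 gave -22.3 within 200 bp, -2.74 with 1000 bp around starts left out, -25.9 with inner exons and -20.6 matched by exon. Aldoa gave -3.74 within 200 bp, -6.03 with 1000 bp around starts left out and -5.25 matched. Pgam1 gave -3.62, -4.12, -9.04 with inner exons and -6.13 matched. In CAPS Tpi1 gave -3.53 within 200 bp, -0.0570 with promoters kept, -4.90 with 1000 bp around starts left out, -0.389 at 10 reads, -4.97 with inner exons and -4.75 matched; Pgam1 gave -2.73, -0.673, -2.93, -1.12, -1.60 and -2.30 under the same settings. In PS, where each difference rests on at most 3 modified calls a side in the reported values, Gapdh gave 0.181 within 1000 bp, 0.0917 with promoters kept, 0.398 at 10 reads and 0.263 with the main start only, and Eno1 0.146 with promoters kept. Ldha gave 0.0315 within 200 bp, 0.0720 with promoters kept, 0.0670 and 0.101 at 5 and 10 reads, 0.0353 without the largest exon, 0.0309 with inner exons and 0.0931 matched. Tpi1 gave 0.195 within 200 bp, 0.00413 with promoters kept, 0.344 with 1000 bp around starts left out, 0.192 at 10 reads, 0.167 without variant-like cytosines, 0.0529 without the largest exon and 0.0431 matched.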
